A study of Mus musculus with 4 samples.

Results

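The genes described here are those of glycolysis and of the response to low oxygen, measured in cultured mouse embryonic fibroblasts that lack Men1. Members were taken from a list of 36 genes, and a gene was measured where a probe set of the array was annotated with its symbol and no other. This gave 31 measured genes on 45 probe sets, of 8251 genes named in this way outside the array's own control probe sets. Gpi1, Eno1, Slc16a3, Bnip3l and Egln3 had no such probe set and are not analysed here. Gapdh was present only as 6 control probe sets, so 30 members on 39 probe sets entered the tests.

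Fibroblasts of all groups were Men1 knockout cells on a mixed FVB and 129Sv background. In 2 samples they had been complemented with Men1, the gene of the nuclear scaffold protein menin, and in 2 with vector. The titles number the arrays 1 and 2 in each group and do not say what the number stands for. Cells were kept in medium with 10% serum and harvested 24 h after seeding. The stated purpose was to find genes that menin regulates. The labels do not say whether the samples came from separate cultures, from how many embryos or clones the cells derived, or how Men1 was introduced or expressed.

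Glycolysis splits glucose into pyruvate in the cytosol, and its flow is set largely at glucose entry and at the steps of hexokinase, phosphofructokinase and pyruvate kinase. When oxygen falls, prolyl hydroxylases such as Egln1 stop marking the transcription factor subunit Hif1a for destruction, and HIF then raises glucose transporters, glycolytic enzymes, lactate dehydrogenase and factors such as Vegfa. HIF is regulated mainly through the stability of the Hif1a protein, which an array does not measure. Growing fibroblasts in culture use glycolysis even with oxygen present.

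Signals are the deposited linear intensities, and a difference is between mean log2(signal + 16) values, which understates the change of dim probe sets. Signals of different probe sets are not comparable, so genes are not ranked by level. A signal is called at control level where it did not exceed the highest of 19 control probe sets without spiked RNA, which was 25.9 and 27.4 on the Men1 arrays and 15.9 and 20.0 on the vector arrays. Of the 30 tested members, each taken by its brightest probe set, 27 were above control level on all 4 arrays. Pgam2, the muscle phosphoglycerate mutase, and Adm, the vasodilator peptide adrenomedullin, were at control level on all of them. Slc16a1, a lactate and pyruvate transporter, was at control level on 1 Men1 array.

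Between 61.9% and 70.7% of all probe sets were above control level on an array. The single Men1 probe set read 18.8 and 22.5 with Men1 against 18.1 and 29.5 with vector, and its position relative to the deleted exons is not given in the sources used here, so these values do not check the labels. Over all probe sets the Men1 arrays lay a median of 0.196 log2 units apart and the vector arrays 0.306. Across the groups, the arrays numbered 1 lay 0.189 apart and those numbered 2 0.215. Men1 replicate 1 and vector replicate 2 lay 0.257 apart, and Men1 replicate 2 and vector replicate 1 0.213. Arrays of a group were thus not always closer to each other than to arrays of the other group. Fibroblast markers were present, with 10 of 15 measured above control level on all arrays, including Col1a1, Fn1 and Sparc. Thy1, a surface marker of fibroblasts, was at control level on all arrays. Of 6 endothelial and 8 blood cell markers, 4 and 5 were at control level throughout, Cdh5 and Ptprc among them. Pecam1 of the endothelial and Cd68 and Cd74 of the blood cell markers were above it on all 4 arrays. So were 2 of 8 epithelial markers, Cdh1 and Krt19, and 2 of 6 neural markers, Tubb3 and Gfap. Of 6 muscle markers 3 were, Myod1, Actc1 and Acta1, and of 4 measured adipocyte markers 0 were.

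**Figure D1:**
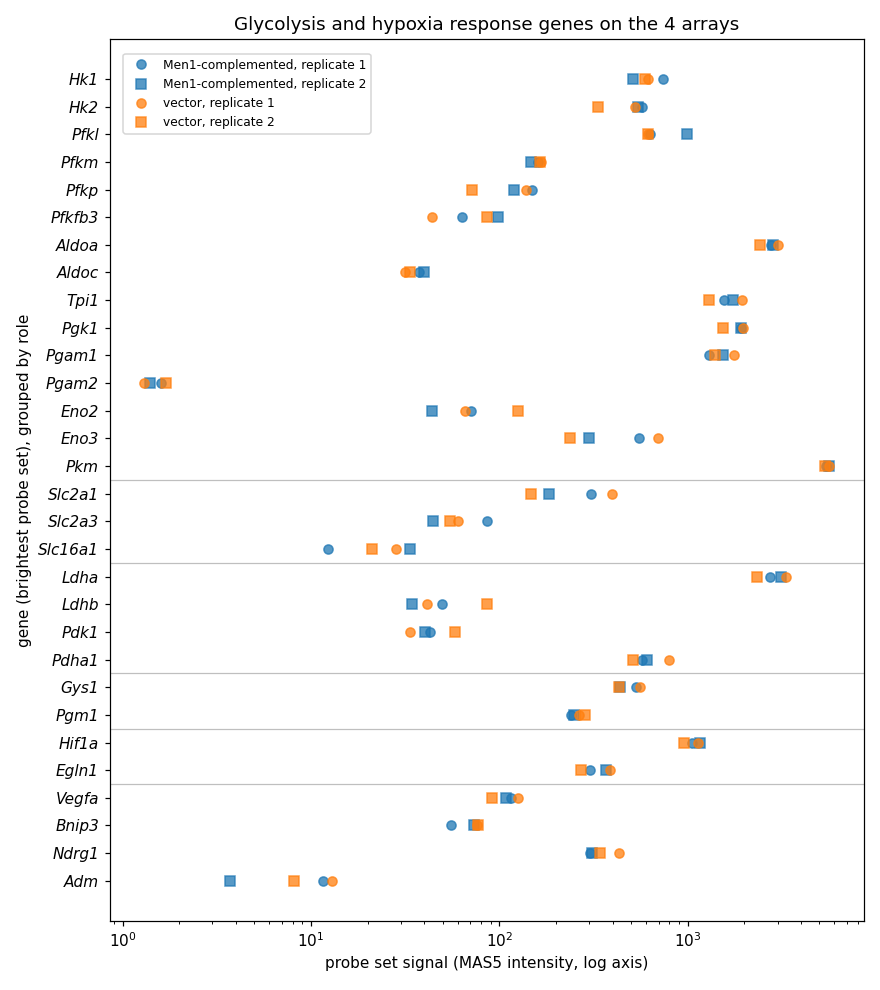
Signals of the 30 tested members on the 4 arrays, each by its brightest probe set, on a log axis (MAS5 intensity). Blue marks Men1-complemented and orange vector arrays, circles replicate 1 and squares replicate 2; lines separate the roles. For Eno3 and Slc2a1 both circles lie to the right of both squares, whereas the Pkm points nearly coincide.

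Between Men1-complemented and vector fibroblasts, no member of the list passed the test. Of the 30 genes, 16 were higher and 14 lower, with a median log2 difference of 0.01 and a range from -0.58 to 0.40. Over all 8251 genes the median was -0.01. With limma, 0 of the 39 member probe sets passed at an adjusted p under 0.05 and 0 at an unadjusted p under 0.05, where 0.0% and 1.88% of all 12422 probe sets did. The smallest unadjusted p among members was 0.127 (limma). The member median was 0.148 without vector replicate 1 and -0.11 without vector replicate 2, so its sign depended on a single array.

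For 7 of the 30 members, or 23.3%, both arrays of one group lay above both of the other, against a background of 22.1% over all genes. This share is that of any gene on the array. With Men1, 3 of them were higher (background 10.1%), namely Hk2, Pfkl and Aldoc, and 4 were lower (background 12%), namely Pfkm, Pgm1, Bnip3 and Ndrg1.

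Hexokinases catalyse the first step of glycolysis. Hk2, the inducible hexokinase that traps glucose as its phosphate, read 569.4 and 544.1 with Men1 against 522.2 and 336.0 with vector. The other 3 lay close together, and vector replicate 2 was the low array. The mean was 556.8 ± 17.9 (SD, n = 2) against 429.1 ± 132 (SD, n = 2), a log2 difference of 0.40 with a standard error (SE) of 0.26. Without vector replicate 2 it was 0.09. Hk1, the constitutive hexokinase, read 738.1 and 510.6 with Men1 against 617.2 and 590.8 and overlapped, with a difference of 0.02 (SE 0.24).

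Phosphofructokinase has liver, muscle and platelet subunits, encoded by Pfkl, Pfkm and Pfkp. Pfkl read 629.6 and 992.2 with Men1 against 618.1 and 613.4 with vector. Men1 replicate 2 stood alone above the other 3, and the difference of 0.35 (SE 0.27) fell to 0.03 without it. Pfkm read 160.3 and 146.6 against 167.0 and 164.4, so its groups did not overlap although they differed by only -0.10 (SE 0.17). Pfkp read 148.3 and 120.0 against 138.8 and 72.0 in its brighter probe set and overlapped. Pfkfb3, which makes the fructose bisphosphate that activates phosphofructokinase, differed by 0.29 (SE 0.35).

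For the bright enzymes from aldolase to pyruvate kinase the groups overlapped. Pkm, pyruvate kinase, read 5448.7 and 5639.1 with Men1 against 5600.2 and 5336.8, a difference of 0.02 (SE 0.17). Differences were 0.05 for the aldolase Aldoa (SE 0.20), 0.06 for Tpi1, triose phosphate isomerase (SE 0.25), 0.13 for Pgk1, phosphoglycerate kinase (SE 0.20), and -0.15 for the mutase Pgam1 (SE 0.21). Gapdh, which oxidises glyceraldehyde phosphate, was read by 3 control probe sets along its transcript, and in a fit that included control probe sets these differed by 0.08, -0.03 and -0.04. The other 3 Gapdh control probe sets are of the opposite strand design and were not used.

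Aldoc, the brain-type aldolase, read 37.3 and 40.0 with Men1 against 31.7 and 33.5. Its groups separated narrowly, with a difference of 0.17 (SE 0.17). Eno2, the neuronal enolase, had the lowest difference of the list, -0.58 (SE 0.35). It read 71.0 and 43.7 with Men1 against 65.6 and 125.9, which overlap, and vector replicate 2 was the high array. Eno3, the muscle enolase, differed by 0.00 (SE 0.58), and its wide error goes with the spread of its arrays within each group. Pgam2, at 1.3 to 1.7 on all arrays, has no interpretable difference.

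At the branch from pyruvate, Ldha, the lactate dehydrogenase subunit induced by HIF, read 2721.3 and 3130.6 with Men1 against 3343.4 and 2334.1. The vector arrays were the highest and the lowest, and the difference was 0.06 (SE 0.24). Ldhb, the subunit of oxidative tissues, read 49.8 and 34.2 against 41.2 and 86.4, a difference of -0.41 (SE 0.34) with overlap. Pdk1, the kinase that switches pyruvate dehydrogenase off, differed by -0.07 (SE 0.25). Pdha1, a subunit of that dehydrogenase, differed by -0.10 (SE 0.26).

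For the glucose and lactate transporters the Men1 differences were smaller than their SE, so changes in either direction were not resolved. The differences were -0.02 for Slc2a1, the main glucose transporter of fibroblasts (SE 0.51), 0.10 for Slc2a3 (SE 0.30) and -0.12 for Slc16a1 (SE 0.32). In glycogen metabolism, Gys1, glycogen synthase, differed by -0.03 (SE 0.22). Pgm1, which interconverts glucose phosphates, read 238.9 and 249.1 against 263.3 and 283.8. The Pgm1 groups were apart with a difference of -0.15 (SE 0.17), less than 1 SE.

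For the oxygen sensing genes themselves the differences were also smaller than their SE. Hif1a differed by 0.09 (SE 0.19) and 0.14 (SE 0.23) in its 2 probe sets, and Egln1 by 0.04 (SE 0.24). Among genes that HIF induces, Ndrg1, a stress-responsive gene, read 302.2 and 309.8 with Men1 against 431.9 and 341.2 with vector. Both Men1 arrays were lower, with means of 306.0 ± 5.37 and 386.5 ± 64.1 (SD, n = 2 each) and a difference of -0.31 (SE 0.20). It was -0.15 without vector replicate 1 and -0.48 without vector replicate 2. Its other probe set read 251.8 and 252.9 against 355.7 and 295.7, a difference of -0.34 (SE 0.19), so 2 probe sets gave the same order. That agreement is between probe sets on the same RNA and adds no replicate.

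Bnip3, a mitochondrial protein of cell death and mitophagy, read 55.5 and 73.8 with Men1 against 75.9 and 77.5. Its Men1 arrays were lower, 1 of them by little, and the difference was -0.21 (SE 0.20), or -0.05 without Men1 replicate 1 and -0.37 without Men1 replicate 2. Vegfa, the endothelial growth factor, differed by 0.05 (SE 0.21). Adm differed by -0.18 (SE 0.24) at control level. None of Vegfa, Bnip3, Ndrg1 and Adm passed the limma test, as an adjusted or an unadjusted p.

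**Figure D2:**
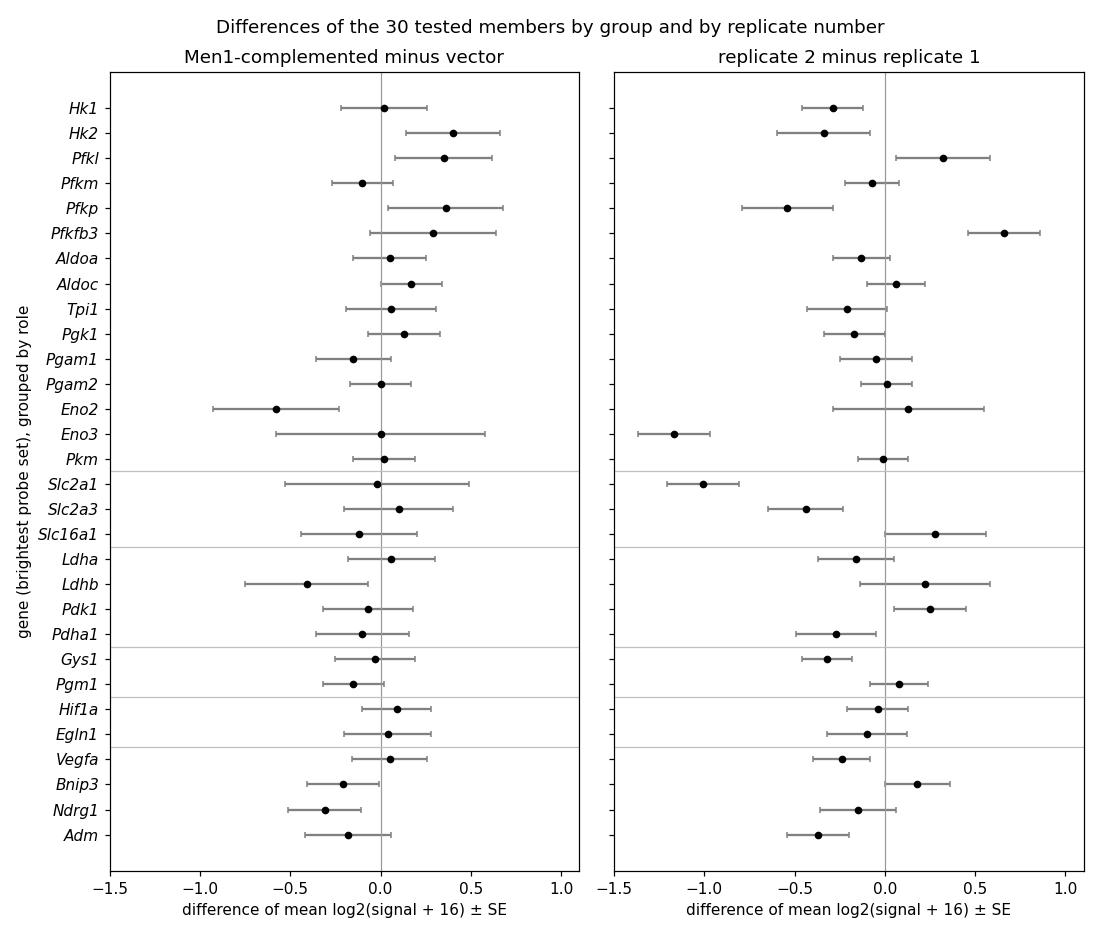
Differences of mean log2(signal + 16) with their SE from limma for the 30 tested members, Men1-complemented minus vector on the left and replicate 2 minus replicate 1 on the right. On the left the values lie between -0.58 and 0.40; on the right Eno3 (-1.17) and Slc2a1 (-1.01) stand farthest from 0.

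Division of the same 4 arrays by replicate number gave larger differences for several members. Slc2a1 was about 2.02-fold lower and Eno3 about 2.25-fold lower on the arrays numbered 2, on the log2(signal + 16) scale, and Pfkfb3 was 1.58-fold higher. With limma, 0 of 39 member probe sets passed at an adjusted p under 0.05, as did 0.0% of all probe sets. At an unadjusted p under 0.05 there were 6 member probe sets, or 15.4%, against 12% over all probe sets. By gene there were 3 of 30, or 10.0%, against 12.6%. These shares are near the background, so the list as a whole did not stand out in this test.

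Slc2a1, which carries glucose across the membrane, read 307.2 with Men1 and 394.9 with vector on the arrays numbered 1, and 184.2 and 146.7 on those numbered 2. Both arrays numbered 1 were higher, with means of 351.0 ± 62.0 and 165.4 ± 26.5 (SD, n = 2 each). The log2 difference was -1.01 (SE 0.20, limma adjusted p = 0.306). Within the Men1 arrays it was -0.69 and within the vector arrays -1.34.

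Slc2a3, a glucose transporter of high affinity, had 2 probe sets. The brighter read 86.4 and 60.5 on the arrays numbered 1 and 44.3 and 54.6 on those numbered 2, a difference of -0.44 (SE 0.21), or -0.23 without Men1 replicate 1. The other read 50 and 52.3 against 26.5 and 29.4, a difference of -0.61 (SE 0.14, limma adjusted p = 0.324). Both probe sets were lower on the arrays numbered 2, without overlap. The value of 26.5 was at control level.

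Eno3, which makes phosphoenolpyruvate and is known as the enolase of muscle, read 551.8 with Men1 and 698.3 with vector on the arrays numbered 1, against 300.1 and 236.4. The means were 625.0 ± 104 and 268.2 ± 45.0 (SD, n = 2 each), and the groups of arrays were far apart. The difference was -1.17 (SE 0.20, limma adjusted p = 0.304). With the probe sets limited to a mean signal of at least 50, Eno3 was the 1 member probe set that passed (limma adjusted p = 0.0442).

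Among 6 muscle markers, Acta1 of skeletal muscle was also lower on the arrays numbered 2 (69.6 and 94.6 against 31.9 and 49.1, difference -0.80), whereas Myod1 differed by 0.32. Myog was lower with Men1 (23.7 and 28.1 against 68.1 and 53.3, difference -0.87), where 23.7 was at control level. Actc1 read 717.8 to 992.9 over the arrays in its brighter probe set and 2.0 to 3.5, at control level, in the other. Myh3 was at control level throughout. Des read 37.5 and 13.4 on the arrays numbered 1 against 8.9 and 37.3, where 13.4 and 8.9 were at control level. Of 15 fibroblast markers, 2 were lower and 4 higher on the arrays numbered 2 at an unadjusted limma p under 0.05. Over all genes 4.86% were lower and 7.7% higher at that level. The lower were Col5a1 and Pdgfrb, and the higher Col6a1, Dcn, Lum and Postn. Postn differed most (5.7 and 8.2 against 46.4 and 125.1, difference 2.03) and was at control level on both arrays numbered 1. The part of these markers in the Eno3 and Slc2a1 values was not tested.

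Pfkp had 2 probe sets. The brighter read 148.3 and 138.8 on the arrays numbered 1 and 120.0 and 72.0 on those numbered 2, a difference of -0.54 (SE 0.25). That value was -0.23 without vector replicate 2 and -0.86 without Men1 replicate 2. The other read 163.9 and 124.0 against 78.2 and 46.3, a difference of -1.05 (SE 0.26, limma adjusted p = 0.341). Both separated the numbers, and vector replicate 2 was lowest in both.

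Pfkfb3 went the other way, at 63.3 and 43.7 on the arrays numbered 1 against 98.6 and 86.5 on those numbered 2. The difference was 0.66 (SE 0.20, limma adjusted p = 0.360). Its second probe set, at control level on all arrays, differed by -0.38. A dim Ldhb probe set, at control level on all arrays with 2.2 and 1.4 against 9.6 and 8.2, also had an unadjusted limma p under 0.05 (0.0199). Its brighter probe set read 49.8 and 41.2 against 34.2 and 86.4 and overlapped.

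Signals on the arrays numbered 2 were lower for 20 members and higher for 10, with a median difference of -0.12. Without either vector array the median was -0.014, and without either Men1 array -0.197 or -0.189. Over all genes 3342 were lower and 4909 higher, with a median of 0.06. Bright genes leaned the other way. Of the 919 genes with a mean signal of at least 500, 525 were lower and 394 higher, with a median of -0.05. Of the 10 members above that limit, which was chosen after the data were seen, 9 were lower and 1 higher (median -0.15). The part of signal level in the members' direction was not tested. Arrays of the numbers did not overlap, with number 2 lower, for 8 members or 26.7%, against 17.1% of all genes, and with number 2 higher for 1 member or 3.33%, against 28.5%. Besides Slc2a1, Slc2a3, Eno3 and Pfkp, the 8 were Hk1, Gys1, Vegfa and Adm, and the 1 was Pfkfb3. Adm was at control level on all arrays, so its order carries no information and 7 members remain without it.

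Gys1 read 534.3 and 558.6 on the arrays numbered 1 against 436.5 and 432.8, a narrow separation of -0.32 (SE 0.14). Hk1 differed by -0.29 (SE 0.17) and Vegfa by -0.24 (SE 0.16). Adm read 11.6 and 12.9 against 3.7 and 8.1, below every control maximum, which sets no order.

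For most of the bright glycolytic enzymes the numbers overlapped. Pkm differed by -0.01 (SE 0.14), Pgam1 by -0.05 (SE 0.20), Aldoa by -0.13 (SE 0.16), Ldha by -0.16 (SE 0.21), Pgk1 by -0.17 (SE 0.17) and Tpi1 by -0.21 (SE 0.22). Gapdh, in the fit with control probe sets, differed by 0.09, 0.08 and 0.17, and the first and last of these probe sets were higher on both arrays numbered 2. Hif1a differed by -0.04 (SE 0.17) in its brighter probe set, which overlapped, and -0.29 (SE 0.17) in the other, which did not, and Egln1 by -0.10 (SE 0.22).

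**Figure D3:**
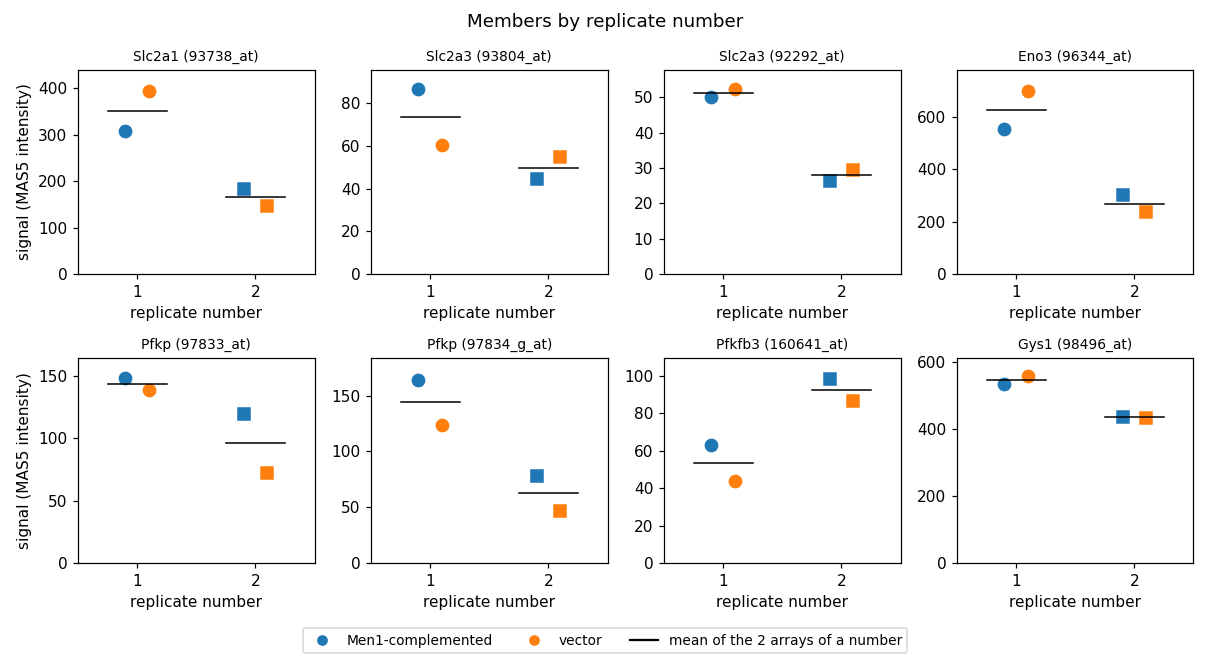
Signals (MAS5 intensity, linear axes from 0) of 8 member probe sets on the arrays numbered 1 (circles) and 2 (squares); blue is Men1-complemented, orange is vector, and the line is the mean of the 2 arrays of a number. In each panel both arrays of one number lie above both of the other, and Pfkfb3 alone is higher on the arrays numbered 2.

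Promoters of these members are printed because a core of the hypoxia response element, ACGTG or GCGTG on either strand, is the sequence that HIF binds. Sequences are from RefSeq (GRCm38.p6) and show the 250 bases before the annotated start, 5′ to 3′ on the gene's strand, with each match in capitals. Ldha, the lactate dehydrogenase subunit, is added as a bright member that did not separate the numbers.
Slc2a1, chr4:119108495-119108744, plus strand: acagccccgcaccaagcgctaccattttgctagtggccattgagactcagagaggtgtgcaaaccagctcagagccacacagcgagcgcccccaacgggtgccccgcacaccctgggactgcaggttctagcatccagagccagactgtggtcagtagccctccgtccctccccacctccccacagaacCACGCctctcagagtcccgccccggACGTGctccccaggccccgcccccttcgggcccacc
Eno3, chr11:70656926-70657175, plus strand: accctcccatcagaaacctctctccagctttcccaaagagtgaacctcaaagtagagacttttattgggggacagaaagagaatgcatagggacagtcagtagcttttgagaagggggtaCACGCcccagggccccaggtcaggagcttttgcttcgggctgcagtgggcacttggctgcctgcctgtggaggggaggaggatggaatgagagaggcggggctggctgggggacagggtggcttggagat
Pfkp, chr13:6648772-6649021, minus strand: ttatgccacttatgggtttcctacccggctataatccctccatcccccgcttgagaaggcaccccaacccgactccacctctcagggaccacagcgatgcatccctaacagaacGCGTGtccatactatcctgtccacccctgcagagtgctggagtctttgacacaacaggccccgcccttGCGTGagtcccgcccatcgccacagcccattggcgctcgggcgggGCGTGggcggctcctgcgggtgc
Pfkfb3, first start listed, chr2:11553930-11554179, minus strand: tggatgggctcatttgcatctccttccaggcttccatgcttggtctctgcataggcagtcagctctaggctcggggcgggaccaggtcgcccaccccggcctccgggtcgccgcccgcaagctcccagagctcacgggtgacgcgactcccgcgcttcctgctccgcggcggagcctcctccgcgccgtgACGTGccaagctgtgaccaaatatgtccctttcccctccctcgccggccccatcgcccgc
Pfkfb3, second start listed, chr2:11502091-11502340, minus strand: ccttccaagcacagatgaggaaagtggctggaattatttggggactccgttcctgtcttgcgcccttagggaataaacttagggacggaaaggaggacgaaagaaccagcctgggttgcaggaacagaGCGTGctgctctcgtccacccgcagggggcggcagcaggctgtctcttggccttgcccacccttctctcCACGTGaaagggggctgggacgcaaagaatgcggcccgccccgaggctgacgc
Ldha, first start listed, chr7:46845554-46845803, plus strand: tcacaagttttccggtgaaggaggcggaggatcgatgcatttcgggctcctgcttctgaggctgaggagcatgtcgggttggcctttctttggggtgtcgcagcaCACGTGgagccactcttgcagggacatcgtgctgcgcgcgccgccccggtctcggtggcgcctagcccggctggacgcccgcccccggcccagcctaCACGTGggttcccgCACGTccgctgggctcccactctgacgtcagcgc
Ldha, second start listed, chr7:46846832-46847081, plus strand: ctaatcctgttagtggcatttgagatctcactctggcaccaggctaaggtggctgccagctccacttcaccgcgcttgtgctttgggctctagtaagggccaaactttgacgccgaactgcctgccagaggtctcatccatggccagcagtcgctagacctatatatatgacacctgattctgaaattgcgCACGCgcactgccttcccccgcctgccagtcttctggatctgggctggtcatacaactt

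The matches in capitals number 2 in Slc2a1, 1 in Eno3 and 3 in Pfkp. They number 1 and 3 at the starts of Pfkfb3 and 5 and 1 at those of Ldha, where the palindrome CACGTG counts as overlapping matches on both strands. In windows of 300 bases, from 250 before to 50 after the start, a match was found in 31 of 41 promoters of measured members (75.6%), and in 25 of 29 genes with a promoter in the table (86.2%). Of all genes of the array with a promoter there, 63.3% had one, and of all promoters of such genes 57.7%. Over all 32851 promoters of the table the share was 43.8%. Median GC content was 61.0% for the members and 59.7% for the genes of the array. Eno2, Gys1, Pgam2 and Tpi1 had no match in their windows. Such a match describes letters in a window and is not a measured site, and members with matches include lower, higher and overlapping ones between the numbers.

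Between the replicate numbers, the Men1 difference of many bright members changed sign. On the arrays numbered 1, Ldha, Tpi1, Pgam1, Pdha1, Aldoa, Pgk1, Pkm and Hif1a were all lower with Men1 than with vector. On the arrays numbered 2 the same 8 genes were all higher with Men1. These are 1 array against 1, so no difference within a number has a replicate check and none was tested.

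Ldha differed by -0.30 within number 1 and 0.42 within number 2, as its 4 signals above show. Tpi1 read 1555.6 against 1931.6 within number 1 and 1736.8 against 1290.0 within number 2, differences of -0.31 and 0.42. Pgam1 read 1298.6 against 1763.6 and then 1534.0 against 1399.6, differences of -0.44 and 0.13. Vector replicate 1 was the highest and vector replicate 2 the lowest array for Ldha and Tpi1, with both Men1 arrays between them.

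Pdha1 had differences of -0.46 and 0.25, Hif1a of -0.11 and 0.29, Aldoa of -0.13 and 0.22, Pgk1 of -0.04 and 0.31, and Pkm of -0.04 and 0.08. Egln1 (-0.34 and 0.41), Slc2a1 (-0.35 and 0.30) and Eno3 (-0.33 and 0.32) had the same signs at lower signal, as did Gys1, Slc16a1 and Vegfa. The opposite order, higher with Men1 within number 1 and lower within number 2, was seen for 6 members, or 20.0% against 35.5% of all genes, with the widest span in Eno2 (0.09 and -1.25) and Ldhb (0.20 and -1.03). Hk1 was among them (0.25 and -0.20).

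In all, 14 of 30 members (46.7%) were lower with Men1 within number 1 and higher within number 2, against 21.2% of all genes. Bright genes had this pattern more often over the whole array. Of the 919 genes with a mean signal of at least 500, a limit chosen after the data were seen, 37.3% had it, against 8 of 10 members above that limit. With each array centred on its median the share of all genes rose to 37.4% and the members' count to 18 of 30. With quantile normalization the share of all genes was 28.3% and the members' count stayed at 14. The part of signal level and array scaling in the members' pattern was not tested. Ndrg1 (-0.49 and -0.13) and Bnip3 (-0.36 and -0.06) were lower with Men1 within both numbers, as were Pgm1 and Pfkm, and Adm at control level. Higher within both were Pfkp (0.09 and 0.63), Hk2 (0.12 and 0.67), Pfkl (0.03 and 0.68), Aldoc and Pfkfb3.

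**Figure D4:**
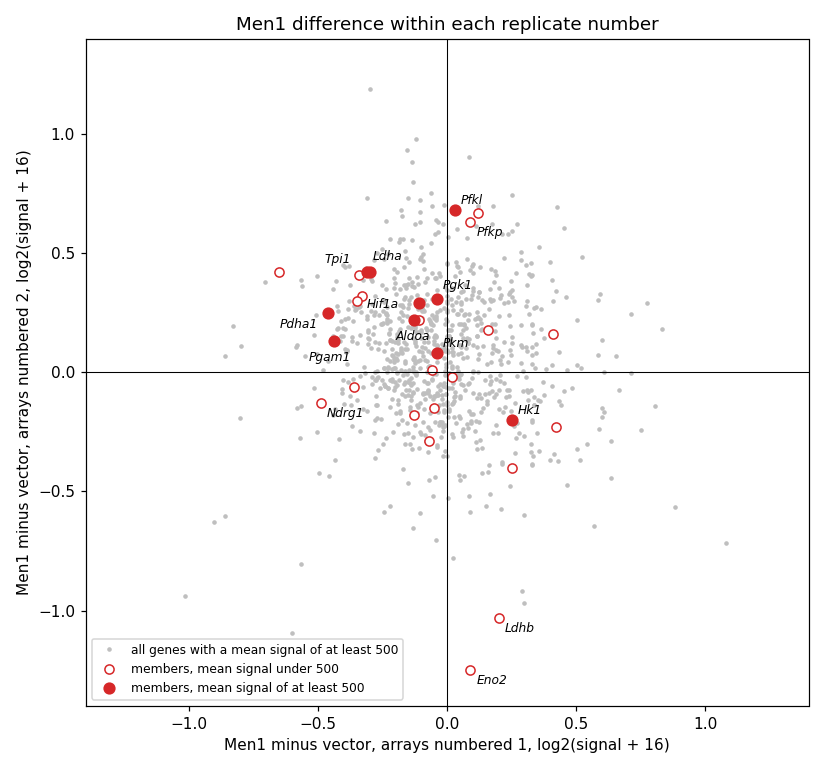
Men1-complemented minus vector difference in log2(signal + 16) on the arrays numbered 1 (horizontal) and numbered 2 (vertical). Filled red points are members with a mean signal of at least 500, open red points other members, grey points all 919 genes at or above that signal. Of the 10 filled points, 8 lie in the upper left, lower within number 1 and higher within number 2, and of the members Eno2 and Ldhb lie lowest.

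Genes of the same pathways outside the list were taken from a further list of 91, of which 70 were measured. For Men1 against vector, 0 of 70 were at an unadjusted limma p under 0.05 (background 1.68% of genes), and the smallest was 0.0755. Between the replicate numbers 13 were (18.6% against 12.6%), 4 lower (background 4.86%) and 9 higher (7.7%) on the arrays numbered 2, and 0 passed when adjusted.

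The lower genes included Epas1, which encodes the HIF subunit HIF-2 alpha. It read 67.4 with Men1 and 63.6 with vector on the arrays numbered 1 and 33.0 and 32.3 on those numbered 2, a difference of -0.74 (SE 0.14). Ero1a, an oxidase of protein folding induced by hypoxia, read 893.8 and 893.3 against 704.7 and 635.1 (-0.41, SE 0.15). The other Ero1a probe set read 959.9 and 907.7 against 505.5 and 475.7 (-0.91, SE 0.14). Flt1, a receptor for Vegfa, read 152.4 and 95.9 against 51.1 and 76.6 (-0.80, SE 0.28). For each of these genes both arrays numbered 2 were lower.

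Higher genes on the arrays numbered 2 included Angptl4, a lipase inhibitor and HIF target, at 64.1 and 73.7 against 37.0 and 41.2 (0.62, SE 0.15). Its other probe sets overlapped, with differences of 0.21, -0.04 and 0.00, the last at control level on all arrays. Cited2, which competes with HIF for its coactivator, read 1720.7 and 1469.6 against 1162.2 and 1221.6 (0.41, SE 0.16). Differences were 0.39 for Siah1a, 0.47 for Pdgfb, 0.58 for Gapdhs and 0.62 for G6pc. Vhl (0.97), which marks Hif1a for destruction, Arnt2 (0.98) and Slc2a4 (0.50) were at control level on 2 arrays each, so their sizes are uncertain. The other Gapdhs and Slc2a4 probe sets overlapped and were at control level on all arrays, with differences of 0.45 and 0.13. The genes of the further list thus lay on both sides by number. They include targets and regulators of HIF, and the part of HIF in their differences was not tested.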

How the data were processed

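Per the submitters' processing notes, the authors used Affymetrix Expression Console and MAS5 for the deposited intensity values; versions and scaling target are not given in the sources used here. Trimmed means of 150.07 to 150.08 on every array show scaling of each array as a whole, and no further normalization was applied. Of 12488 probe sets, 66 controls were left out and 12422 tested, of which 10833 had a single symbol, 396 several and 1193 none in the platform annotation. All 31 member gene IDs matched RefSeq (GRCm38.p6). Values were log2(signal + 16), fitted in R 4.3.3 by limma 3.58.1 (lmFit, then eBayes). Its two-sided p-values were adjusted by Benjamini-Hochberg over all probe sets, at a threshold of 0.05. The fits were group only, and replicate number only, each with 2 residual degrees of freedom. Precision is limited by having 4 arrays (median SE 0.22 and 0.18). With 2 arrays a group, an exact permutation test cannot go below p = 0.333. The labels do not say that samples are separate cultures, and a p-value here reflects only how far these arrays spread, possibly for technical reasons. Medians and gene counts use each gene's probe set of highest mean. The fit was tested on simulated data. Members and lists were chosen with earlier results of these data known. Named genes were all measured members and, of the further list, the 12 of smallest unadjusted p under 0.05; array values were given for members under that p, with groups that did not overlap, or among the 6 largest differences by number. Detection calls were not used here, nor were protein sequences, so isozyme proteins were not compared.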

Additional observations from a re-analysis of the deposited data

How the results depend on the processing

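The alternatives were pseudocounts of 1 and 64, quantile normalization, centring on array medians, a mean signal of at least 50, a variance trend, the replicate block and leaving out each array; inclusion of the control probe sets was chosen after the data were seen. For Men1 against vector, 0 probe sets passed under all 12, and the 8 member differences named as not overlapping kept their sign. Probe sets at an unadjusted limma p under 0.05 numbered 233 as reported, 67 at a mean signal of at least 50, and 121 to 1031 without single arrays (1031 without vector replicate 1). Member probe sets at that level numbered 0 as reported and 0 to 4 without single arrays. For the replicate numbers, 0 probe sets passed as reported and 51 at a mean signal of at least 50. The 51 held 1 member, Eno3 (-1.17, limma adjusted p = 0.0442). With that limit fewer probe sets were tested, and limma estimated its variances anew from those kept. The unadjusted limma p of Eno3 was 0.000293 there and 0.00228 as reported. Probe sets at an unadjusted p under 0.05 numbered 1491 as reported and 717 to 2000 without single arrays. Member probe sets at that level numbered 6 as reported, 5 to 8 without single arrays and 10 with centring; the cause was not tested. The member median ranged from -0.11 to 0.148 for Men1 and from -0.257 to -0.014 for the numbers. Where an array was left out, the lone array of its arm is assumed to vary like the others. Deviations of same-numbered arrays from their group means correlated at 0.26 over probe sets, but the labels do not pair the arrays. With the replicate block, 297 probe sets were at an unadjusted p under 0.05 for Men1, 0 of them members, and 0 passed.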
